A study of Sus scrofa with 8 samples.

Results

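The proteasome genes measured here were the probesets whose symbol starts with PSM followed by a letter from A to G and a digit, in the annotation of the array or in the gene list that was published with these arrays. They came to 49 of 23999 non-control probesets and to 41 genes. The annotation of the array named 46 of them, and the published list alone named the other 3, which belong to PSMD1, PSMD14 and PSMG4. Those 3 entered through a list of transcripts chosen for a breed difference on the same arrays, so their breed differences are given as descriptions only. The list also names 2 of the 46, the PSMG3 probeset and 1 of PSMC2, which the array annotation alone would have admitted. Of the genes, 36 had 1 probeset, PSMF1 and PSMD14 had 2, and PSMC2, PSMD1 and PSMD11 had 3. No probeset was named for PSMB9, PSMB11, PSMA8, PSMC4, PSMD7, PSMD9, PSMG2 or PSMC3IP, and these genes were not analysed here. The published list was read only in part, so further probesets that it alone names may be missing. Each gene is given at its brightest probeset unless another is named.

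The proteasome is the protease that degrades most short-lived and misfolded proteins of a cell after they have been tagged with ubiquitin. Its barrel-shaped core is built of outer rings of PSMA subunits, which gate the entrance, and inner rings of PSMB subunits, of which PSMB5, PSMB6 and PSMB7 hold the constitutive active sites. A regulatory particle sits on the core, with a base of PSMC ATPases that unfold substrates and a lid that removes ubiquitin. Under interferon, and constitutively in leukocytes, PSMB8, PSMB9 and PSMB10 take the places of PSMB5, PSMB6 and PSMB7 in newly built cores. The result is the immunoproteasome, which favours peptides that bind class I molecules of the major histocompatibility complex. In the pig uterus around day 12 of gestation, elongating conceptuses secrete interferons and estrogens onto the endometrium, and interferon-stimulated genes are known to respond in the stroma.

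Endometrium was taken on day 12 of gestation from 4 Meishan and 4 Yorkshire gilts, each mated to boars of its own breed at an early estrus, and every uterus used held filamentous conceptuses. The gilts were untreated, and each gilt was a separate animal with 1 Affymetrix Porcine Genome array. Ages of the gilts were not used here. The values are linear signals made with the Affymetrix software GCOS 1.2, which were put on the log2 scale and centred on the median of each array. A mean signal is the geometric mean of 4 gilts, and a log2 difference is Meishan minus Yorkshire. Samples were pieces of whole tissue, so fewer cells of a type and less RNA per cell cannot be told apart.

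All arrays had the same trimmed mean of 500.1 in the deposited signals, and pairs of arrays correlated between 0.892 and 0.936 over all probesets. The hybridization spike-ins, which are bacterial transcripts added in a fixed amount, averaged 12.1 on the log2 scale in Meishan and 11.05 in Yorkshire arrays without overlap between breeds. The part of this in the results was not tested. Of 6 measured genes for endometrial hormone receptors and secretions, 5 had a mean of at least 64, the level below which signals were treated as near background, in at least 1 breed. Markers of the conceptus trophoblast summed to signals of 533 to 1301 in Meishan and 615 to 7002 in Yorkshire over 6 measured genes, where IFNG, a conceptus interferon gene, alone made up 4604 and 6286 of the sums of Yorkshire gilts 1 and 3. Markers of leukocytes summed to 2305 to 3678 and 2439 to 3256 over 18.

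Proteasome transcripts were measured well above background in every gilt and differed little between the breeds. All 49 probesets had a signal of at least 64 in each of the 8 gilts, and 30 of the 41 genes lay among the 4800 brightest probesets. By limma with Benjamini-Hochberg adjustment over all 23999 probesets, 0 of 49 were called at an adjusted p under 0.1, where the share called over all probesets was 0.908%. The part of the published list read here, made with another model, names 5 of the 49. At an unadjusted limma p under 0.05, 3 of 49 passed, which is 6.12%, where 14.8% of all probesets did (7.79% toward Meishan and 6.96% toward Yorkshire). Of these 3, the probesets of PSMD1 and PSMD14 came from the published list alone, which leaves 1 of the 46 named by the array (2.17%). That is the probeset of PSMG3, which the list names too. Under 5 of the alternative settings 1 to 3 of the 49 probesets were called, PSMD1 among them each time.

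Taken by gene, 25 of 41 lay toward Meishan and 16 toward Yorkshire, a split that was 29 to 12 without centring, 30 to 11 with quantile and 28 to 13 with cyclic loess normalization. Over all probesets, 51.7% lay toward Meishan, and 41.3% of the 4800 brightest did. The median log2 difference of the 41 genes was 0.07, beside 0.02 over all probesets and -0.04 in the brightest of 10 equal groups by signal. The differences ran from -0.45 for PSMF1 to 0.68 for PSMG3, and 39 of 41 lay within 0.5 of zero. Only for PSMG3 did the 4 gilts of a breed all lie on one side of the other 4, which is 2.44% of the genes, where 10.1% of all probesets (5.01% with Meishan above and 5.09% with Yorkshire above) and 12% of the 4800 brightest separated in this way. Standard errors ran from 0.18 to 0.53 with a median of 0.25. The 95% confidence interval lay within -1 to 1 for 33 of the 41 genes.

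**Figure D1:**
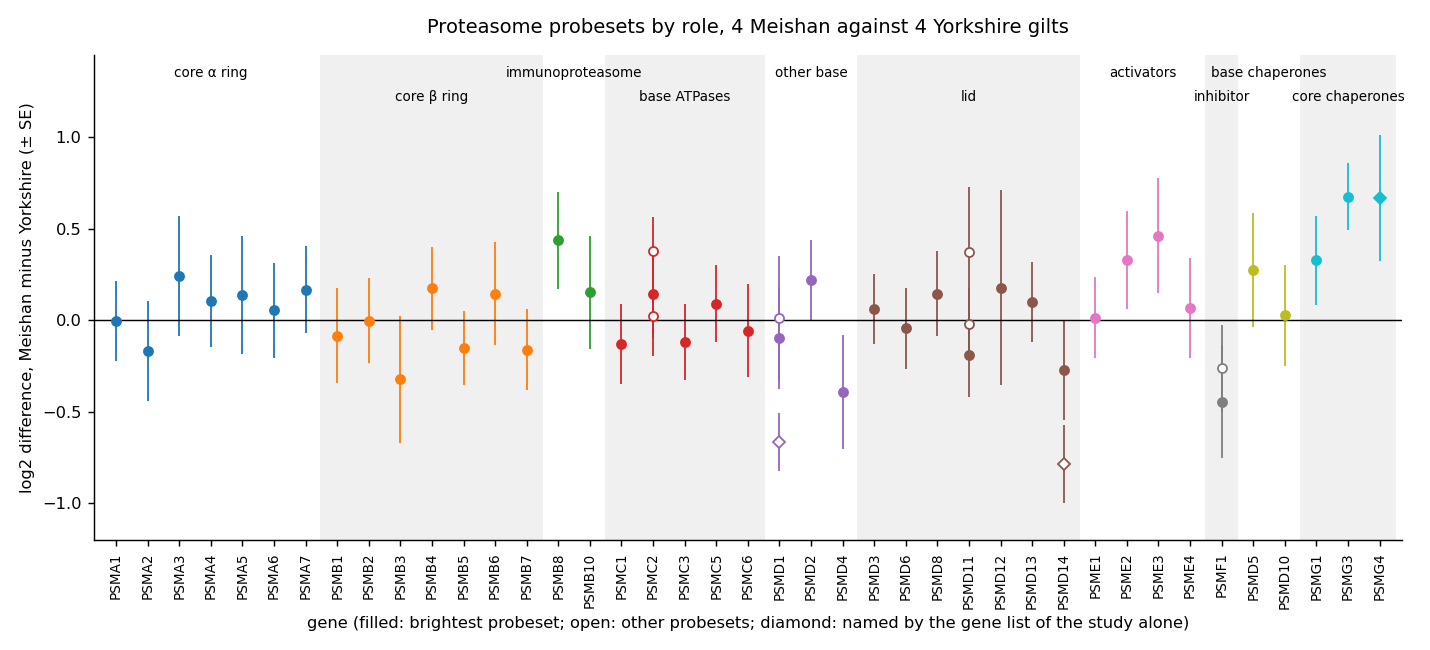
Log2 difference of every proteasome probeset (vertical axis, Meishan minus Yorkshire, with bars of 1 standard error, n = 4 gilts per breed), with genes along the horizontal axis grouped by role. Filled symbols are the brightest probeset of a gene, open symbols its other probesets, and diamonds the 3 probesets named by the published list alone. The points of the core, base and lid lie around 0, between -0.39 and 0.24 at the brightest probesets. PSMG3 (0.68) and PSMG4, core assembly chaperones that are both on the published list, lie highest.

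No gene of the core particle was called or reached an unadjusted p under 0.05 in either of its rings. The 7 measured genes of the outer alpha ring, PSMA1 to PSMA7, had a median of 0.11, with 5 toward Meishan, and all lay within 0.5 of zero. Signals of PSMA3, the alpha ring gene farthest toward Meishan, were 9881, 4482, 4576 and 6706 in Meishan and 4423, 4078, 4926 and 7854 in Yorkshire, in the order of gilts 1 to 4 used throughout. The log2 difference was 0.24 (SE 0.33, limma adjusted p = 0.779). PSMA2 lay farthest toward Yorkshire, at -0.17, with 6971, 3651, 3560 and 4717 in Meishan and 4376, 4675, 6945 and 4804 in Yorkshire. For both genes Meishan gilt 1 was the highest of all 8 gilts, and gilts 2 and 3 of Meishan lay below all Yorkshire gilts for PSMA2 but among them for PSMA3.

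The constitutive inner ring, PSMB1 to PSMB7, had a median of -0.09 (-0.26 without Meishan gilt 1), with 2 genes toward Meishan and 5 toward Yorkshire. PSMB5, which carries the chymotrypsin-like active site, had signals of 3470, 2034, 2420 and 2625 in Meishan and 2768, 2703, 2938 and 3099 in Yorkshire. Its difference was -0.15 (SE 0.20, 95% confidence interval -0.62 to 0.32, limma adjusted p = 0.774). The 4 Yorkshire gilts lay close together, between Meishan gilt 1 above and the other 3 Meishan gilts below. PSMB6, with the caspase-like site, had 3068, 1548, 1947 and 2730 in Meishan and 1978, 1536, 2087 and 2667 in Yorkshire (0.14, SE 0.28), so the breeds covered nearly the same range. PSMB7, with the trypsin-like site, had 3257, 1853, 1894 and 2376 in Meishan and 2692, 2329, 2501 and 2721 in Yorkshire (-0.16, SE 0.22), with the gilts placed much as for PSMB5, except that Meishan gilt 4 lay above Yorkshire gilt 2.

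Among the subunits of this ring without an active site, PSMB4 lay farthest toward Meishan at 0.17 and PSMB3 farthest toward Yorkshire at -0.32. PSMB4 had 7157, 4284, 4690 and 5306 in Meishan and 4220, 3875, 5452 and 5300 in Yorkshire. PSMB3 had 460.5, 255, 228 and 307 in Meishan and 355, 288, 291 and 682 in Yorkshire. Yorkshire gilt 4 stood above all other gilts for PSMB3, and without it the difference was -0.04. The 14 genes of the alpha and constitutive beta rings together had a median of 0.03, with 7 on each side and 0 at an unadjusted p under 0.05.

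The base and the lid of the regulatory particle lay as close to zero as the core. The 5 measured ATPases, motor subunits that unfold the substrate and thread it into the core, had a median of -0.06, which became 0.003 with quantile normalization and 0.004 without centring. They ran from -0.13 for PSMC1 to 0.14 for PSMC2. PSMC1 had 1612, 1012, 972 and 1363 in Meishan and 1368, 1175, 1269 and 1526 in Yorkshire. PSMC2 had 2763, 1668, 1527 and 1824 in Meishan and 1946, 1473, 1544 and 1966 in Yorkshire. In both, the breeds overlapped below Meishan gilt 1, the highest of all gilts.

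The other base genes were PSMD1 and PSMD2, the large scaffold subunits, and PSMD4, a receptor for ubiquitin chains. PSMD2 had 2810, 1640, 1976 and 2536 in Meishan and 1778, 1629, 2089 and 2082 in Yorkshire (0.22, SE 0.22). PSMD4 had 102, 141, 174 and 234 in Meishan and 156.02, 173, 289 and 223 in Yorkshire (-0.39, SE 0.31, limma adjusted p = 0.604). It differed from most subunits in that Meishan gilt 1 was the lowest of its breed, and the difference was -0.19 without that gilt and -0.59 without Meishan gilt 4. Probesets of PSMD1 disagreed and are described further on.

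The 7 measured lid genes, PSMD3, PSMD6, PSMD8, PSMD11, PSMD12, PSMD13 and PSMD14, had a median of 0.06, with 4 toward Meishan. PSMD12, a structural subunit, varied most among gilts of any member, with 3512, 787, 1139 and 1990 in Meishan and 1271, 992, 1042 and 2911 in Yorkshire. Its difference of 0.18 had an SE of 0.53, and it was -0.21 without Meishan gilt 1. PSMD14, the deubiquitinase that strips ubiquitin from the substrate, lay farthest toward Yorkshire at its brightest probeset, with 2442, 1254, 1077 and 1526 in Meishan and 1682, 1681, 1997 and 1909 in Yorkshire (-0.27, SE 0.27, limma adjusted p = 0.681). Meishan gilts 2, 3 and 4 lay below every Yorkshire gilt and gilt 1 above them all, and without gilt 1 the difference was -0.51. Core, base and lid together numbered 29 genes, of which 14 lay toward Meishan and 15 toward Yorkshire, with a median of -0.003, and 0 reached an unadjusted p under 0.05. The split was 18 to 11 without centring, 19 to 10 with quantile and 17 to 12 with cyclic loess normalization, so it leaned toward Meishan under those scalings, with medians of 0.06, 0.10 and 0.05.

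The inducible subunits of the immunoproteasome lay toward Meishan, but within the spread between gilts. PSMB8, which replaces PSMB5, had signals of 2156, 1524, 998 and 1472 in Meishan and 846, 1198, 1146 and 1239 in Yorkshire. The mean was 1482 in Meishan and 1095 in Yorkshire, a log2 difference of 0.44 (SE 0.27, 95% confidence interval -0.18 to 1.05, limma adjusted p = 0.490). Meishan gilts 1, 2 and 4 lay above all Yorkshire gilts, and Meishan gilt 3 lay below 3 of them. After quantile normalization the PSMB8 difference was 0.54, with an unadjusted limma p of 0.0495, and leaving out Meishan gilt 1 or gilt 3 gave 0.26 or 0.63.

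PSMB10, which replaces PSMB7, had 704, 697, 424 and 436 in Meishan and 322, 458, 709 and 571 in Yorkshire, and its difference was 0.15 (SE 0.31, limma adjusted p = 0.858). The breeds overlapped over almost their whole range, and the sign depended on Yorkshire gilt 1, without which the difference was -0.05. Over both genes the median was 0.29, beside -0.10 over probesets of like signal, and it was 0.13 without Yorkshire gilt 1 and 0.45 without Meishan gilt 3.

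Inducible and constitutive subunits were compared as the ratio of their RNA signals within each gilt, which cancels any factor shared by the whole array. The exchange of the subunit proteins in the core was not measured. Since probesets differ in how brightly they report a transcript, the size of such a ratio is no measure of relative amounts, and only its change between gilts is compared. PSMB8 stood at 62.1%, 74.9%, 41.2% and 56.1% of the PSMB5 signal in Meishan and at 30.6%, 44.3%, 39.0% and 40.0% in Yorkshire. Meishan gilts 1, 2 and 4 lay above every Yorkshire gilt, and Meishan gilt 3 lay below Yorkshire gilt 2 alone. The means were 57.3% and 38.1%, a log2 difference of 0.59. The exact two-sided permutation test gave p = 0.0571, and 0.114 after adjustment over the 2 ratios, where the smallest p that 4 against 4 gilts allow is 0.0286.

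PSMB10 stood at 21.6%, 37.6%, 22.4% and 18.4% of the PSMB7 signal in Meishan and at 11.9%, 19.7%, 28.3% and 21.0% in Yorkshire. The highest value belonged to Meishan gilt 2 and the lowest to Yorkshire gilt 1, with the other gilts mixed. Means were 24.0% and 19.3%, a log2 difference of 0.31 (exact two-sided permutation p = 0.429, also after adjustment). The ratio of PSMB9 to PSMB6 was not analysed here.

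**Figure D2:**
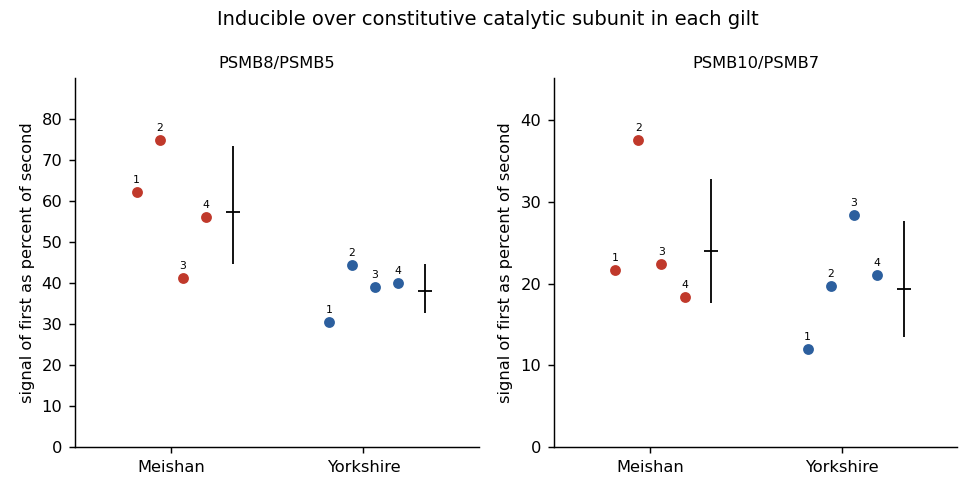
Signal of the inducible catalytic subunit as a percent of the constitutive subunit it replaces (vertical axis), for PSMB8 over PSMB5 and PSMB10 over PSMB7. Numbered points are gilts, and the bars are the geometric mean with 1 SD of the log2 values (n = 4). Of the Meishan gilts, 3 of 4 lie above all Yorkshire gilts for PSMB8 over PSMB5 (41.2% to 74.9% against 30.6% to 44.3%), and the breeds overlap for PSMB10 over PSMB7.

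The activators that cap the core in place of the regulatory particle all lay on the Meishan side or at zero. PSME1 and PSME2 are the interferon-inducible alpha and beta chains of the PA28 activator and form a ring together. PSME1 had 3632, 3182, 2434 and 2286 in Meishan and 2285, 2653, 3223 and 3179 in Yorkshire, a difference of 0.01 (SE 0.22, 95% confidence interval -0.50 to 0.52, limma adjusted p = 0.987). PSME2 had 3848, 2928, 2277 and 2255 in Meishan and 1578, 2149, 2309 and 2985 in Yorkshire, a difference of 0.33 (SE 0.27, limma adjusted p = 0.618). Within Meishan, gilts 1 and 2 were the highest for both chains and for PSMB10, and gilt 1 was highest for PSMB8 with gilt 2 next. Within Yorkshire, gilt 1 was the lowest for all 4 of these genes.

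PSME3, the nuclear PA28 gamma chain, had 708, 374, 488 and 524 in Meishan and 358, 321, 264 and 620 in Yorkshire (0.46, SE 0.31, limma adjusted p = 0.539). Yorkshire gilt 4 lay among the Meishan gilts and the other 3 below all of them. PSME4, the nuclear activator PA200, differed by 0.07. Taken as a group, PSMB8, PSMB10, PSME1 and PSME2 had a median of 0.24 with all 4 on the Meishan side, but the sign for PSME1 turned without Meishan gilt 1 or 2 or Yorkshire gilt 1 or 2.

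PSMF1 encodes PI31, named as an inhibitor of the core in vitro. It was the gene farthest toward Yorkshire, with 428, 569, 520 and 399 in Meishan and 502, 443, 1114 and 701 in Yorkshire (-0.45, SE 0.31, limma adjusted p = 0.55). Yorkshire gilt 3 set much of this difference, which was -0.18 without it. The other PSMF1 probeset gave -0.26 (SE 0.24).

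The chaperones that assemble the core had the largest group median, which rests on PSMG3 and PSMG4, both on the published list. PSMG1, which the part of that list read does not name, lay at 0.33, closer to zero than PSMB8, PSME3 and PSMF1. PSMG1 works in a pair with PSMG2 on the alpha ring, and PSMG3 works in a pair with PSMG4. PSMG3 had 329, 391, 329 and 447 in Meishan and 235, 229, 262 and 207 in Yorkshire, so every Meishan gilt lay above every Yorkshire gilt. Means were 371 (Meishan) and 232 (Yorkshire), a log2 difference of 0.68 (SE 0.18, 95% confidence interval 0.26 to 1.09). The unadjusted limma p was 0.0057 and the adjusted p 0.168, so PSMG3 did not pass the threshold, and it passed only where signals below 32 were set to 32 (limma adjusted p = 0.0665). It is the only member gene with an unadjusted p under 0.05. That is 1 of 41 genes, a smaller share than the 7.79% of all probesets at this level toward Meishan. The PSMG3 probeset is also on the published list, chosen for a breed difference on these arrays, so its difference is not independent evidence.

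PSMG4 is represented by a probeset of the published list alone, so its values are a description. They were 458, 444, 724 and 729 in Meishan and 604, 418, 293 and 228 in Yorkshire, with means of 572 and 361 and a difference of 0.67. In contrast to PSMG3 the breeds overlapped, since Yorkshire gilt 1 lay above Meishan gilts 1 and 2. PSMG1 had 1030, 623, 700 and 897 in Meishan and 655, 564, 520 and 847 in Yorkshire (0.33, SE 0.24, limma adjusted p = 0.576). All 3 measured core chaperones lay toward Meishan with a median of 0.67, and without PSMG4 the median was 0.50. That value still includes PSMG3, which the published list also names. The base chaperones PSMD5 and PSMD10 differed by 0.27 (SE 0.31) and 0.03 (SE 0.28), and PSMD5 had 1967, 956, 1030 and 1341 in Meishan and 1114, 883, 787 and 1575 in Yorkshire, with overlap.

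**Figure D3:**
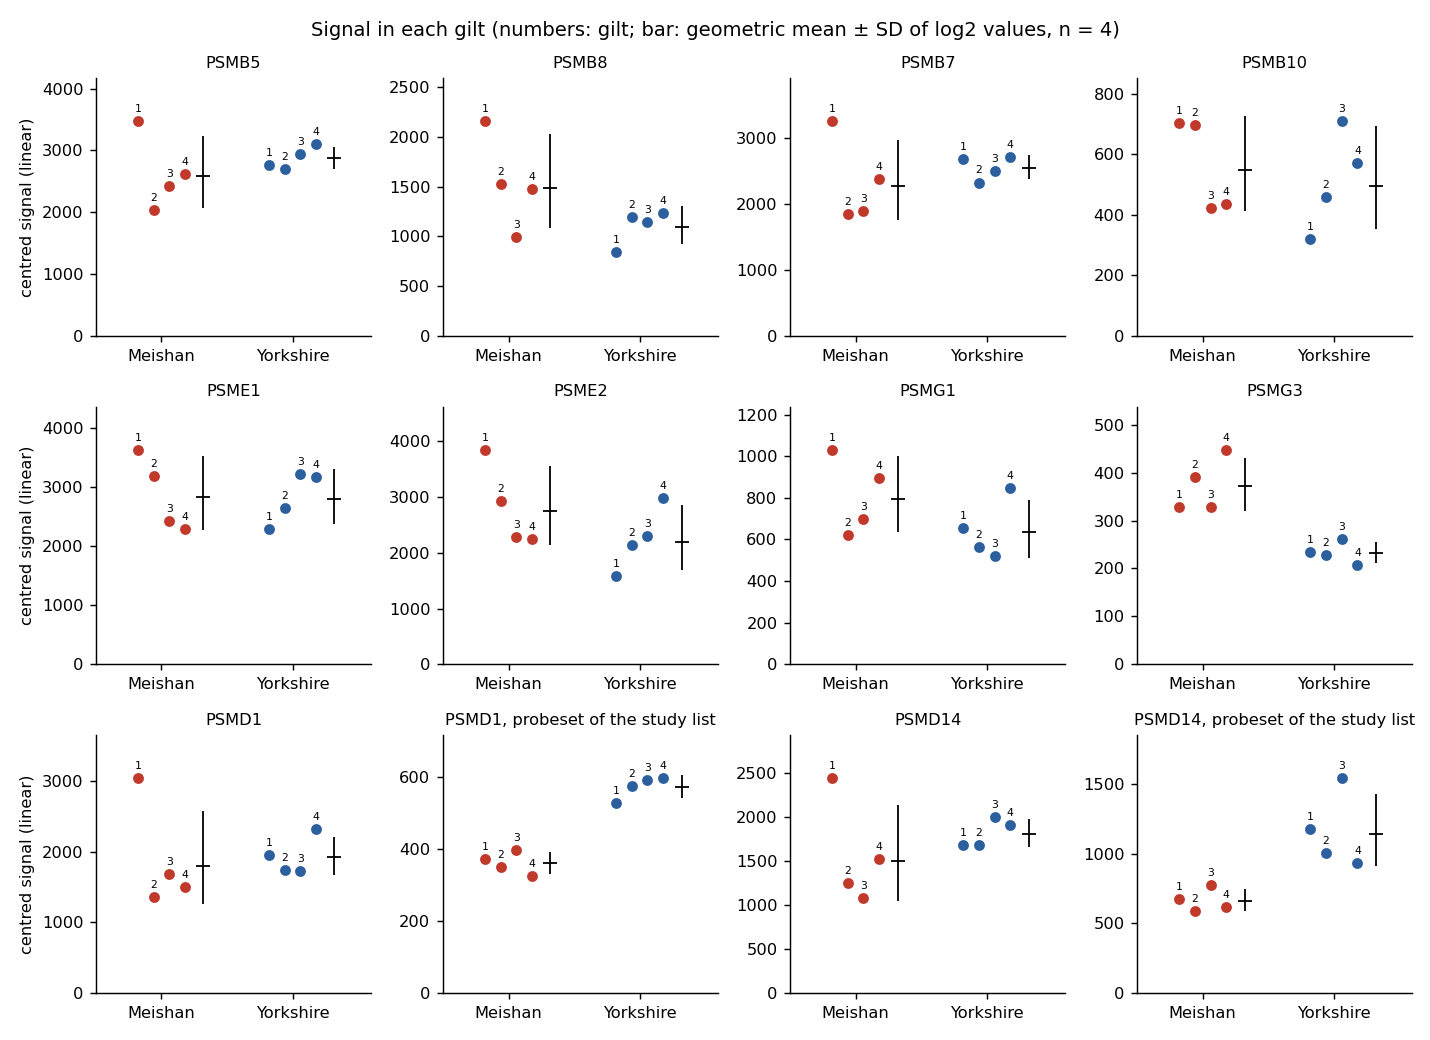
Centred linear signal (vertical axes, each starting at 0) of 12 proteasome probesets in the 4 Meishan and 4 Yorkshire gilts. Points are numbered by gilt, and the bars are the geometric mean with 1 SD of the log2 values (n = 4). The breeds separate for PSMG3 (207 to 262 in Yorkshire, 329 to 447 in Meishan) and for the PSMD1 and PSMD14 probesets of the published list, and not for the brighter probesets of PSMD1 and PSMD14.

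Where a gene had several probesets, they did not always give the same picture. At its brightest probeset PSMD1 averaged 1798 (Meishan) and 1925 (Yorkshire), and at the next 1555 and 1545, differences of -0.10 and 0.01. The PSMD1 probeset of the published list, which was dimmer, had 373, 351, 397 and 326 in Meishan and 527, 575, 593 and 597 in Yorkshire. All Yorkshire gilts lay above all Meishan gilts there, with a difference of -0.67. The gilts also fell in another order, since Meishan gilt 1, at 3042 against 1364 to 1680 for the brightest probeset, did not stand out at the dimmer one.

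PSMD14 showed the same contrast between its probesets. The probeset of the published list had 678, 592, 775 and 615 in Meishan and 1178, 1004, 1543 and 932 in Yorkshire, a difference of -0.79 without overlap, beside -0.27 with overlap at the brightest. Which transcript form each of these probesets detects was not examined here, and since the dimmer ones entered through a list chosen on these arrays, their differences give no independent evidence. PSMC2 had differences of 0.14, 0.02 and 0.38 at its 3 probesets, the last of which the published list also names. That probeset had 1133, 897, 973 and 1216 in Meishan and 764, 726, 778 and 971 in Yorkshire, with overlap only where Yorkshire gilt 4 lay above Meishan gilt 2. PSMD11, a lid subunit that contacts the core, had -0.19, -0.02 and 0.37. None of these 6 probesets had an unadjusted p under 0.05 as reported, but the PSMC2 probeset of the list did under each other scaling, the floor, the intensity trend, array weights, the unmoderated model and without Yorkshire gilt 4, and the dimmest of PSMD11 did without Meishan gilt 2 (0.68).

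The range over gilts of the same breed was larger for most subunits than the difference of the breed means. These are unlike measures, since a range of single gilts is usually wider than a difference of means. In Meishan, the highest gilt exceeded the lowest by a median of 1.81-fold over the 29 genes of core, base and lid, and in Yorkshire by 1.41-fold. The same medians over the 4800 brightest probesets were 1.56-fold and 1.47-fold. Subunits moved together in this respect. Meishan gilt 1 was the highest Meishan gilt for 27 of the 29 genes (93.1%), beside 31% of all probesets and 50.1% of the 4800 brightest. Yorkshire gilt 4 was the highest Yorkshire gilt for 18 of 29 (62.1%), beside 27.6% and 34%, and Yorkshire gilt 2 the lowest for 22 of 29 (75.9%), beside 25.7% and 34.9%.

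Averaged over the 29 genes, log2 signals deviated from the midpoint of the breeds by 0.47, -0.34, -0.21 and 0.06 in Meishan and by -0.09, -0.21, 0.03 and 0.28 in Yorkshire. Meishan gilt 1 was thus 0.80 above Meishan gilt 2, while the breed means, each over 4 gilts, differed by -0.009. Another gilt was highest in Meishan for 6 of the 41 members, which was gilt 4 for PSME4, PSMC5, PSMD4, PSMG3 and PSMG4, and gilt 2 for PSMF1. The 3 core chaperones averaged 0.24, 0.06, 0.27 and 0.54 in Meishan and -0.01, -0.27, -0.42 and -0.42 in Yorkshire. This order came from PSMG3 and PSMG4, both on the published list, through which PSMG4 alone entered. PSMG1 placed the Meishan gilts as the subunits did.

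Measures of RNA quality and tissue content varied among the same gilts. The 3' over 5' signal ratio of the actin controls, which rises as RNA is degraded or incompletely copied, was 1.56, 3.32, 2.91 and 2.63 in Meishan and 2.01, 2.48, 4.45 and 2.26 in Yorkshire. That of gapdh was 3.41, 7.14, 4.56 and 4.15 in Meishan and 4.04, 4.98, 5.68 and 3.38 in Yorkshire. Meishan gilt 1 thus had the lowest ratio of its breed for actin and gapdh and Meishan gilt 2 the highest. In Yorkshire, gilt 3 had the highest of both, and gilt 2, the lowest for most subunits, was at neither extreme. The ratio of the third control, ef1a, lay between 0.84 and 1.10 in all gilts, and there Meishan gilt 3 was marginally the lowest of its breed and gilt 2 the highest. Over 11 epithelial markers such as keratins, deviations were 0.35, -0.30, -0.24 and -0.09 in Meishan and 0.06, -0.29, 0.09 and 0.42 in Yorkshire, with gilts 1 and 4 again at the top of their breeds, and summed signals of 32849 to 52212 and 35297 to 51855. Over 6 smooth muscle markers they were 0.32, -0.36, -0.27 and -0.16 in Meishan and -0.09, 0.11, -0.10 and 0.57 in Yorkshire, with the same gilts at the top, and summed signals of 9774 to 21022 and 13956 to 22236. Over 18 leukocyte markers they were -0.54, 0.42, 0.04 and 0.03 in Meishan and -0.13, -0.06, 0.31 and -0.07 in Yorkshire. The value of -0.54 includes signals near background in Meishan gilt 1, for GNLY (9.5), CD3D (5.9) and PRF1 (3.5). Brighter leukocyte markers were mixed in that gilt. CD163 (502) was the highest of its breed, CD14 (157) and CD8A (128) the lowest, and AIF1 (356), FCER1G (288), TYROBP (208) and CD2 (111) neither. Yorkshire gilt 4 was the lowest of its breed over 8 stroma (-0.26), 7 endothelium (-0.09), 6 trophoblast (-0.29) and 4 red blood cell markers (-0.81). It was the highest, at 0.15, over 6 genes for hormone receptors and secretions. In that order of lists Meishan gilt 1 stood at -0.17, -0.12, -1.29, 0.21 and 0.11, and was the highest of its breed in none. These averages weigh dim and bright markers alike, and single markers differed. HBB, the brightest red blood cell marker, was highest of its breed in Yorkshire gilt 4 (1194) and Meishan gilt 1 (984). HBM, ALAS2 and AHSP were lowest in Yorkshire gilt 4. Among trophoblast markers, TEAD4 and TFAP2C were highest in that gilt, IFNG and GATA3 lowest, and HAND1 and CGA neither. The part of RNA quality or cell content in the order of the gilts was not tested.

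**Figure D4:**
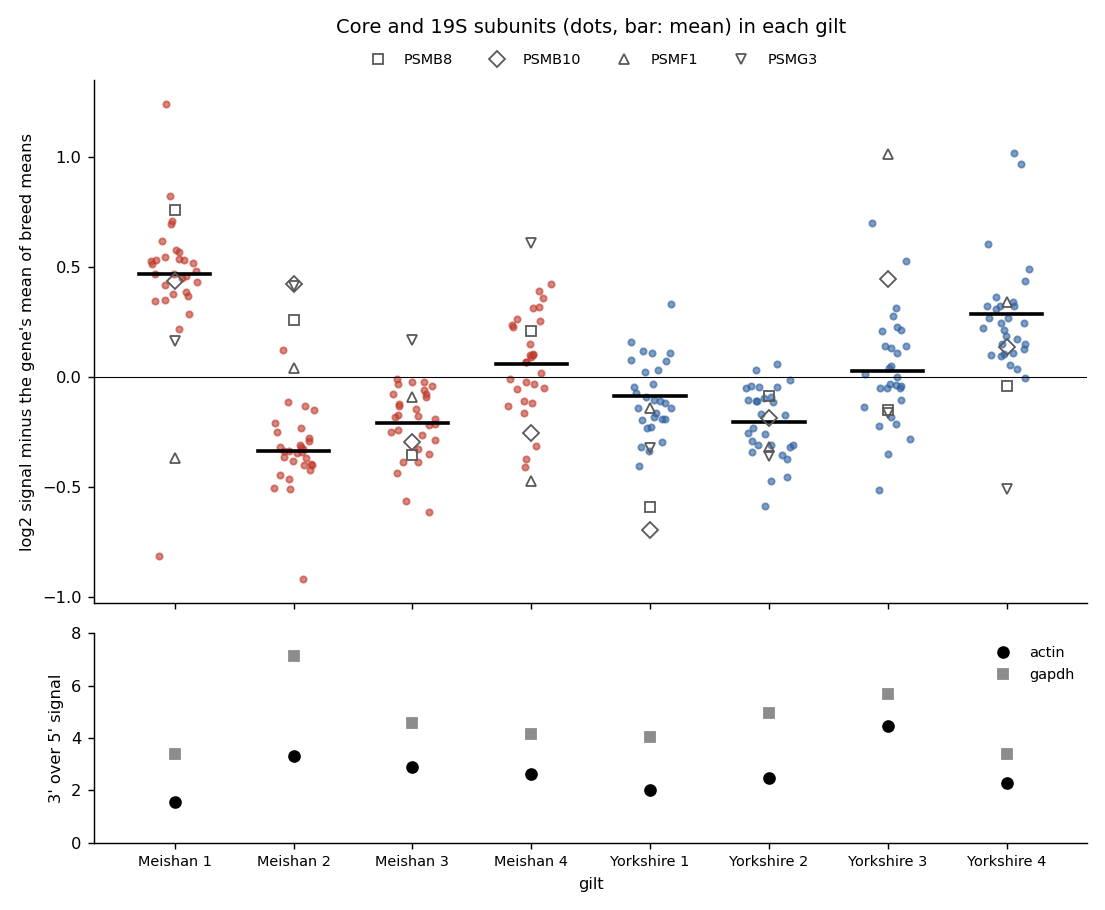
Upper panel, log2 signal of the 29 core, base and lid genes (dots, the last 2 groups forming the 19S regulatory particle) in each gilt relative to the mean of the breed means of the gene, with a bar at their mean and open symbols for 4 other members. Lower panel, 3' over 5' signal ratio of the actin and gapdh control probesets in the same gilts. The bar is highest in Meishan gilt 1 at 0.47 and Yorkshire gilt 4 at 0.28. It is lowest in Meishan gilt 2 at -0.34, which has the highest gapdh ratio, 7.14. In Yorkshire the ratios are highest in gilt 3 (4.45 for actin, 5.68 for gapdh), where the bar is at 0.03, and the lowest bar is that of gilt 2 at -0.21.

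Among genes that act around the proteasome, 1 was called. Of 13 listed partners without a PSM symbol, 5 were measured, 0 were called and 1 had an unadjusted p under 0.05, where 0.908% of all probesets were called and 14.8% had such a p. PAAF1, which binds base ATPases, lay toward Yorkshire with 237, 191, 181 and 223 in Meishan and 307, 257, 378 and 405 in Yorkshire (-0.68, SE 0.21, limma adjusted p = 0.2), without overlap. Of 42 listed ubiquitin genes, E1 and E2 enzymes and shuttle factors, 23 were measured, of which 15 lay toward Meishan and 8 toward Yorkshire, with 1 called and 4 at an unadjusted p under 0.05 (3 toward Meishan and 1 toward Yorkshire). UBE2G2, an E2 enzyme of the degradation pathway at the endoplasmic reticulum, was the gene called. It had 233, 258, 221 and 159 in Meishan and 454, 536, 493 and 480 in Yorkshire, a log2 difference of -1.19 (SE 0.20, limma adjusted p = 0.0628).

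Ubiquitin itself lay toward Meishan, but not under every scaling. UBB, a polyubiquitin gene, had means of 40411 (Meishan) and 25720 (Yorkshire), which differed by 0.65 on the log2 scale (SE 0.17, limma adjusted p = 0.152). RPS27A, which encodes ubiquitin fused to a ribosomal protein, differed by 0.37 (limma adjusted p = 0.332). The gilts did not overlap for either gene and neither was called. With quantile normalization, which forces the very brightest signals of all arrays to the same values, the differences were 0.07 and -0.12. They were 0.43 and 0.18 with cyclic loess normalization, and 0.71 and 0.43 without centring. The cause of these changes between scalings was not tested. Over all 23 genes the median was 0.13, and from 0.13 to 0.19 under the other scalings. Of 13 listed regulators of proteasome gene transcription, 3 were measured (STAT3, NFYB and NFYC), with 0 at an unadjusted p under 0.05.

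The inducible subunits were set beside the pathways they serve. In the RefSeq annotation of assembly Sscrofa11.1, PSMB8 lies between TAP2 and TAP1 with PSMB9 beyond TAP1, and PSME2 lies next to IRF9. TAP1, a subunit of the transporter that carries proteasome products to class I molecules, had 745, 1189, 412 and 373 in Meishan and 827, 2024, 2289 and 1783 in Yorkshire at its brightest probeset. The mean was 608 in Meishan and 1617 in Yorkshire, a log2 difference of -1.41 (SE 0.46, limma adjusted p = 0.224), on the opposite side from its neighbour PSMB8 at 0.44. Meishan gilt 2 and Yorkshire gilt 1 lay within the range of the other breed, and the other 6 gilts were apart. The remaining 2 TAP1 probesets had mean signals of 12.0 to 28.4, near background.

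IRF9, a subunit of the transcription factor that interferon activates, had 454, 989, 406 and 433 in Meishan and 583, 946, 1265 and 996 in Yorkshire (-0.78, SE 0.36, limma adjusted p = 0.362), while its neighbour PSME2 lay at 0.33. Neither gene of either pair was called, and the difference between neighbours was not tested. Over 12 measured genes of class I antigen processing, 6 lay toward each breed with a median of -0.03, which was 0.03 without centring and 0.08 with cyclic loess normalization. B2M, the light chain of class I molecules, had signals of 28968 to 33346 in Meishan and 19133 to 25659 in Yorkshire, without overlap (0.45, limma adjusted p = 0.269). Its difference was 0.01 with quantile and 0.27 with cyclic loess normalization. PDIA3, a chaperone of class I loading, lay toward Meishan by 0.71 (limma adjusted p = 0.209). Of the swine class I genes measured, SLA-8 (-0.50), SLA-3 (-0.38) and SLA-2 (-0.23) lay toward Yorkshire, and SLA-7 (0.47) and SLA-6 (0.19) toward Meishan. Of the 12 genes, 0 were called, where 0.908% of all probesets were.

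Interferon-stimulated genes lay mostly toward Yorkshire, but within the spread between gilts. Of 36 listed, 21 were measured, of which 18 lay toward Yorkshire and 3 toward Meishan, where 51.7% of all probesets lay toward Meishan. Breed averages over these genes differed by -0.36, beside a within-breed SD of 0.53. The median over the genes was -0.31, with 0 calls (0.908% of all probesets). The median lay between -0.24 and -0.22 under the other 3 scalings. RSAD2, an antiviral enzyme, was the gene with an unadjusted p under 0.05 (-1.15, SE 0.49, limma adjusted p = 0.333), 1 of 21 where 6.96% of all probesets reached that level toward Yorkshire. GBP1, a guanylate-binding protein, had 470, 4650, 582 and 483 in Meishan and 1650, 4725, 5138 and 1406 in Yorkshire. Averaged over the 21 genes, deviations were -0.17, 0.71, -0.61 and -0.66 in Meishan and -0.42, 0.39, 0.46 and 0.29 in Yorkshire, so Meishan gilt 2 stood with the higher Yorkshire gilts. In PSMB8 and PSMB10, deviations averaged 0.60, 0.34, -0.32 and -0.02 in Meishan and -0.64, -0.14, 0.15 and 0.05 in Yorkshire. Yorkshire gilt 1 was the lowest of its breed by both measures, and Meishan gilt 1, highest for the inducible subunits, was not high for the interferon-stimulated genes.

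**Figure D5:**
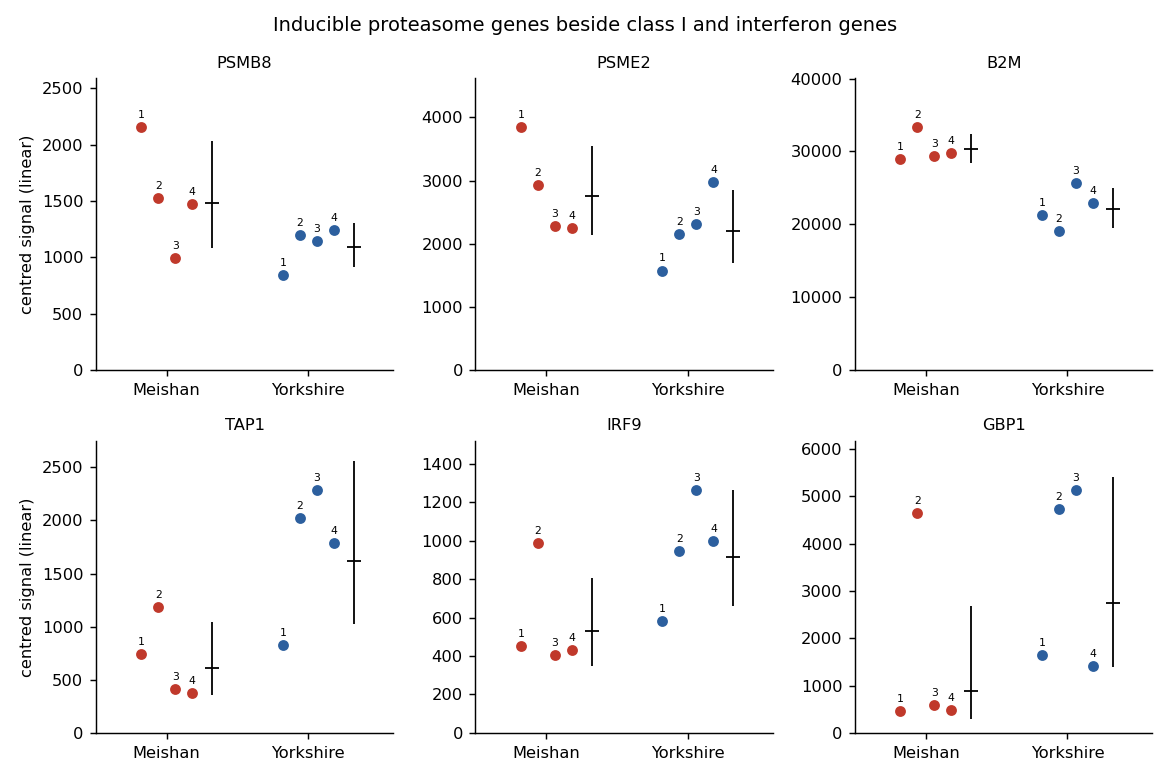
Centred linear signal (vertical axes, each starting at 0) of PSMB8, PSME2, B2M, TAP1, IRF9 and GBP1 in the 4 Meishan and 4 Yorkshire gilts, numbered by gilt, with the geometric mean and 1 SD of the log2 values (n = 4). PSMB8, PSME2 and B2M have the higher mean in Meishan (1482 against 1095 for PSMB8, with B2M level after quantile normalization) and TAP1, IRF9 and GBP1 in Yorkshire (608 against 1617 for TAP1), with overlap of the breeds in all but B2M.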

How the data were processed

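Endometrial RNA of 8 gilts was hybridized to Affymetrix Porcine Genome arrays. The deposited values are linear signal intensities that the authors made with GCOS 1.2 from the scanner images, per the labels, scaled to a common trimmed mean. Detection calls were not used. Signals were converted to log2, the median of the 23999 non-control probesets was subtracted from each array (124 controls left out), and the breeds were compared in limma 3.58.1 under R 4.3.3, with moderated variances (2.09 prior degrees of freedom), Benjamini-Hochberg adjustment and a threshold of 0.1, which follows the q-value of the study. The study used a mixed model in place of limma. It reports many more transcripts at its q-value threshold than the 218 of 23999 probesets called here. The part of its list that was read names 5 proteasome probesets, none of which was called here. The procedure was tested on simulated data. Symbols came from the platform annotation and from the 2551 probesets read from a published list. Members and lists were chosen with earlier results of these data known. Per-gilt values were given for catalytic subunits, PSME1 and PSME2, genes with an unadjusted p under 0.05, probesets of the published list and the extreme genes of each role group, and for up to 4 genes of each pathway list. The values of PSMG1 and of the brighter PSMD1 probesets, the order of the gilts and the comparison of neighbouring genes are not under this rule, and were added with their values known. Ratios were compared by exact permutation over 70 assignments of gilts. The number of arrays limits the precision. Same-numbered gilts did not deviate together (correlations -0.0561, 0.089, 0.001 and 0.0407), so numbers were not treated as pairs. Alternatives were other scalings, a filter and a floor on dim signals, an intensity trend, array weights, an unmoderated model, Storey q-values, a threshold of 0.05, array names alone, the mean of all probesets, a replicate block and leaving out each gilt.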

Additional observations from a re-analysis of the deposited data

How the results depend on the processing

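The count of 0 proteasome probesets called was also 0 without centring, with quantile or cyclic loess normalization, array weights, a threshold of 0.05, array names alone and the replicate block, and 0 to 0 when each gilt was left out. The replicate block called 0 of all 23999 probesets, so its 0 says nothing about the members. The fits that left out 1 gilt called 0.3% to 0.854% of all probesets. The count of proteasome probesets called was 1 with Storey q-values, with dim probesets filtered out and in the unmoderated model, 2 with an intensity trend and 3 with signals below 32 set to 32. PSMD1 of the published list was called in each of these, PSMD14 of that list with the trend and the floor, and PSMG3 with the floor (limma adjusted p = 0.0665). Genes at an unadjusted p under 0.05 were 2 instead of 1 with the mean of all probesets, quantile or cyclic loess normalization, and 1 to 2 without single gilts. They were 2 without Meishan 1, Meishan 3, Yorkshire 1 or Yorkshire 4. Interferon-stimulated genes at that level were 0 instead of 1 without centring and with quantile or cyclic loess normalization, and ubiquitin genes 2 instead of 4 with quantile normalization. With the replicate block, which pairs gilts that share only a number, 1 proteasome gene stayed at that level and 3327 probesets passed in all. The PSMB8 to PSMB5 ratio then had an exact sign-flip p of 0.125, the smallest that 4 pairs allow. The cause of these changes was not tested.

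Leaving out single gilts moved the median of the core chaperones over 0.47 to 0.73, of the alpha ring over -0.07 to 0.21, of the constitutive beta ring over -0.26 to 0.07, of the lid over -0.18 to 0.12 and of the activators over 0.06 to 0.33, with the lowest of the last 4 without Meishan 1, and of PSMB8 and PSMB10 over 0.13 to 0.45. The PSMB8 to PSMB5 difference ranged over 0.46 to 0.75 and that of PSMB10 to PSMB7 over 0.08 to 0.50. Signs turned for PSMB6 (-0.0064 to 0.32), PSMC2 (-0.042 to 0.24), PSMD12 (-0.21 to 0.53), PSMB10 (-0.055 to 0.33) and PSME1 (-0.11 to 0.12, in 4 of 8 fits). Of 425 values of 25 single probesets under alternatives, 410 kept direction and side, 8 turned sign and 7 became calls. With 4 gilts per breed, the median standard error of 0.25 on the log2 scale limits what can be detected.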
